A study of Homo sapiens with 24 samples.

Results

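The genes of the ATR-CHEK1 replication stress checkpoint were followed in the prostate cancer line LNCaP, an established human cell line, after knockdown of the long non-coding RNAs TAPIR-1 and TAPIR-2. The 9 members are ATR, ATRIP, ATM, CHEK1, CHEK2, CLSPN, TIMELESS, TIPIN and TOPBP1, chosen by name from the pathway with earlier results of these data known. The study had already reported CHEK1 and CLSPN as lower, so counts of members beside shares of all genes are descriptions and not an unbiased test. Probes of the members were found through the RefSeq accession that the array design gives each probe. All 9 were above the background threshold at both time points, among 36639 genes tested at 24 h and 37670 at 48 h. Of these, 19497 and 19380 were named RefSeq genes, and the rest were probe targets without a RefSeq name, counted under their array identifier. Every share of all genes given below is over both kinds, whereas the members are all named genes. Cells were transfected by electroporation with a scrambled control siRNA (si-SCRL), an siRNA against TAPIR-1 (si-A1) or an siRNA against TAPIR-2 (si-A2), so the cells of every group, the control included, had received an siRNA. RNA was taken 24 h or 48 h later from 4 biological replicates per siRNA, which gives 24 one-colour Agilent arrays, 1 for each sample. All arrays are of 1 cell line, and each TAPIR transcript was targeted by 1 siRNA on these arrays. Arrays of a different version served each time point, so time point and array version cannot be told apart.

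When a replication fork stalls, single-stranded DNA coated with the protein RPA recruits the kinase ATR through its partner ATRIP. TOPBP1 switches ATR on, and Claspin (CLSPN) together with the fork protection pair TIMELESS and TIPIN brings the effector kinase CHEK1 to ATR, which phosphorylates it. CHEK1 then holds back the CDC25 phosphatases, so that entry into mitosis waits for replication to finish. ATM and its effector kinase CHEK2 form the neighbouring branch, which answers to double-strand breaks. Several of these genes, CLSPN and CHEK1 among them, are known to be transcribed mainly in cells that pass from G1 into S phase, where E2F factors act on their promoters.

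RefSeq promoters (GRCh38.p14, from 250 bases before to 50 bases after a transcript start) were listed for all 9 members, in 14 windows. They are shown here for CLSPN and CHEK1, which were lower after both siRNAs at 24 h, and for ATR, which passed the threshold in no comparison. Those of TOPBP1 and CHEK2, lower after si-A1 at 48 h, are shown too. TIMELESS and TIPIN were also lower there, but their windows are not shown. Each is given 5′ to 3′ on the strand of the gene, and capitals mark a match, on either strand, to the letters TTTNNCGC. These letters include the E2F consensus but are wider than it, so a marked stretch need not be that consensus.
CLSPN, chr1:35769929-35770228, minus strand: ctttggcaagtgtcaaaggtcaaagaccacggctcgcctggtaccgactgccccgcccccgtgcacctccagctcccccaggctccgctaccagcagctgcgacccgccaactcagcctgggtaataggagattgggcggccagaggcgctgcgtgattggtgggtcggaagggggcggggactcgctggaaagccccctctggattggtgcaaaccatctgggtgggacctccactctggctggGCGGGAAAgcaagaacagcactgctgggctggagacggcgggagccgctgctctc
CHEK1, chr11:125625979-125626278, plus strand: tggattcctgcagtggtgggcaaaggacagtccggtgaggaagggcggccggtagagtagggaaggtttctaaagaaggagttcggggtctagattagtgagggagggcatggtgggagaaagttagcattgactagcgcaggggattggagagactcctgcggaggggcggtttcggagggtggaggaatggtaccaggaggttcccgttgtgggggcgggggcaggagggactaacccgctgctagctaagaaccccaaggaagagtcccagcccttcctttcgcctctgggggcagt
TOPBP1, chr3:133661892-133662191, minus strand: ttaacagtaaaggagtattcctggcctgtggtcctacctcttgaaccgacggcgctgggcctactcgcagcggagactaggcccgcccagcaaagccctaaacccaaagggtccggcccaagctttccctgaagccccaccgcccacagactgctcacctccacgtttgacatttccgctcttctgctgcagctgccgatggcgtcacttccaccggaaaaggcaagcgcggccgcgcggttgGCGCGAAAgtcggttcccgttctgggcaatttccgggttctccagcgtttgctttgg
CHEK2, chr22:28741771-28742070, minus strand: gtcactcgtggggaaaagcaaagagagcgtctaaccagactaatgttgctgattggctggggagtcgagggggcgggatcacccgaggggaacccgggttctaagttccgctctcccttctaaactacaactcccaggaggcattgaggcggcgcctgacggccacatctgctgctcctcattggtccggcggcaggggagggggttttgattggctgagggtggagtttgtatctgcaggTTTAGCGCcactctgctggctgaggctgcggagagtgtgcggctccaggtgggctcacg
ATR, chr3:142578684-142578983, minus strand: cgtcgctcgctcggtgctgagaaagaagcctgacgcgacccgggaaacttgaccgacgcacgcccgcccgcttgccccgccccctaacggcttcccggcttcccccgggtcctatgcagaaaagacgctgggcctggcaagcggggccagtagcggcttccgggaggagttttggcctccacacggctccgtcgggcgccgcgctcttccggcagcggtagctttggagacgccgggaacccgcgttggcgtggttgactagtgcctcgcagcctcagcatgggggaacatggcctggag
The window of CHEK1 is 1 of 3 that overlap. TTTNNCGC was found in the windows of CLSPN, TOPBP1 and CHEK2, beginning 5, 7 and 9 bases before the start, and in 1 of the 2 windows of TIPIN, where 2 matches on opposite strands overlap. No match lay in these windows of ATR, ATRIP, ATM, CHEK1 or TIMELESS. Among 35116 RefSeq promoters of this length, 2418 (6.89%) hold a match on either strand. A match to TTTGAA, the core of the cell cycle element CHR, was found in a window of ATM alone among the members, and in 15.2% of all promoters. These matches describe the letters of the windows and were not tested for binding.

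All levels given here are log2 processed intensities after quantile normalization within a time point. One si-A2 array at 48 h (replicate 2) stood apart with a median intensity of 13.9, where the other 48 h arrays had 20.4 to 32.2, and it was left out, as in the methods of the study. No spot was saturated. All 6 prostate markers reported here, KLK3 among them, were well above background on every array, and their summed linear intensity per array was 10294 to 17130 at 24 h and 8280 to 24370 at 48 h. Of the 11 markers of other cell types, KRT5 and CHGA were well above background on no array at either time, whereas VWF, PTPRC and CD3E were so on every array. The sum of these markers was 363 to 779 per array at 24 h, over all 11, and 363 to 614 at 48 h, over the 10 with a probe there. No probe carries the accession of the TAPIR-1 transcript. A TAPIR-2 probe read 5.04 ± 0.20 (SD, n = 4) after si-SCRL and 4.06 ± 0.74 (SD, n = 4) after si-A2 at 24 h, a log2 fold change of -0.98 (limma adjusted p = 0.23). At 48 h the same probe read 4.64 ± 0.58 (SD, n = 4) and 4.68 ± 0.90 (SD, n = 3), so the arrays labelled si-A2 did not read lower than si-SCRL on it there. A second TAPIR-2 probe, on the 48 h array, was well above background on no array and had a log2 fold change of -0.59 after si-A2 (limma adjusted p = 0.605). Which stretch of the transcript the probes cover was not analysed.

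At 24 h, the question was which checkpoint genes differ from si-SCRL after each knockdown. CLSPN and CHEK1 fell after both siRNAs. CLSPN, the adaptor that holds CHEK1 for phosphorylation by ATR, showed the largest change of the 9 members in either comparison. TOPBP1, CHEK2 and TIMELESS lay lower on every knockdown array than on every control array but missed the threshold, and ATR, ATRIP and ATM differed by at most 0.33 on the log2 scale. A gene counted as called if its adjusted p was below 0.01 and its log2 fold change was 0.5 or more in size (limma with Benjamini-Hochberg adjustment over all genes tested). By this rule 2 of the 9 members were lower after si-A1, where 0.958% of all genes tested were called lower, and 2 of 9 were lower after si-A2, where 0.827% were. No member was called higher. The members had a median log2 fold change of -0.92 with si-A1 and -1.0 with si-A2, while that of all genes was 0.05 in both comparisons. These sizes depend on the background subtraction: with normexp background correction the member medians were -0.29 and -0.40, and with no background correction -0.29 and -0.39. Both comparisons share the si-SCRL arrays.

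CLSPN, on chromosome 1 (35720213 to 35769978), read 7.28, 7.57, 7.82 and 7.46 on the 4 si-SCRL arrays at 24 h. It read 4.59, 3.57, 4.31 and 2.78 after si-A1 and 2.94, 2.66, 3.21 and 2.28 after si-A2. The highest knockdown array was therefore far below the lowest control array. The log2 fold change was -3.72 ± 0.36 (SE) after si-A1, with a limma adjusted p of 0.000322. It was -1.64 with normexp and -1.65 with no background correction, both still called. The signal was well above background on 2 of the 4 si-A1 arrays and on none of the 4 si-A2 arrays. After si-A2 the level is thus only a bound: CLSPN was at least 11.4-fold lower than after si-SCRL. The limma adjusted p of 6.42e-05 is that of the estimated change of -4.76, and the bound itself was not tested. This bound sets the control mean against the dimmest signal rated well above background on each si-A2 array, or the probe's own signal where that is higher. The bound holds on the background-subtracted scale alone, since the si-A2 change was -1.81 with normexp and -1.82 without background correction, both called.

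CHEK1, the kinase that carries the ATR signal to the cell cycle, lies on chromosome 11 (125625136 to 125681124). It read 7.02, 6.74, 7.83 and 7.15 after si-SCRL, 5.81, 5.30, 5.74 and 5.0 after si-A1, and 5.35, 4.76, 5.30 and 5.28 after si-A2. All arrays were well above background, and neither knockdown group overlapped the controls. The log2 fold change was -1.72 ± 0.25 (SE) after si-A1, a 3.29-fold lower level, with a limma adjusted p of 0.0047. After si-A2 it was -2.01 ± 0.25 (SE), a 4.02-fold lower level, with a limma adjusted p of 0.00172. Both calls held with normexp (-1.01 and -1.16) and with no background correction (-0.99 and -1.14), at smaller sizes. The si-A1 call was lost, with limma adjusted p-values of 0.0105 to 0.0218 and changes of -1.78 to -1.51, when any 1 of 8 arrays was left out (si-SCRL replicate 1, 3 or 4, si-A1 replicate 2, 3 or 4, or si-A2 replicate 3 or 4).

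**Figure D1:**
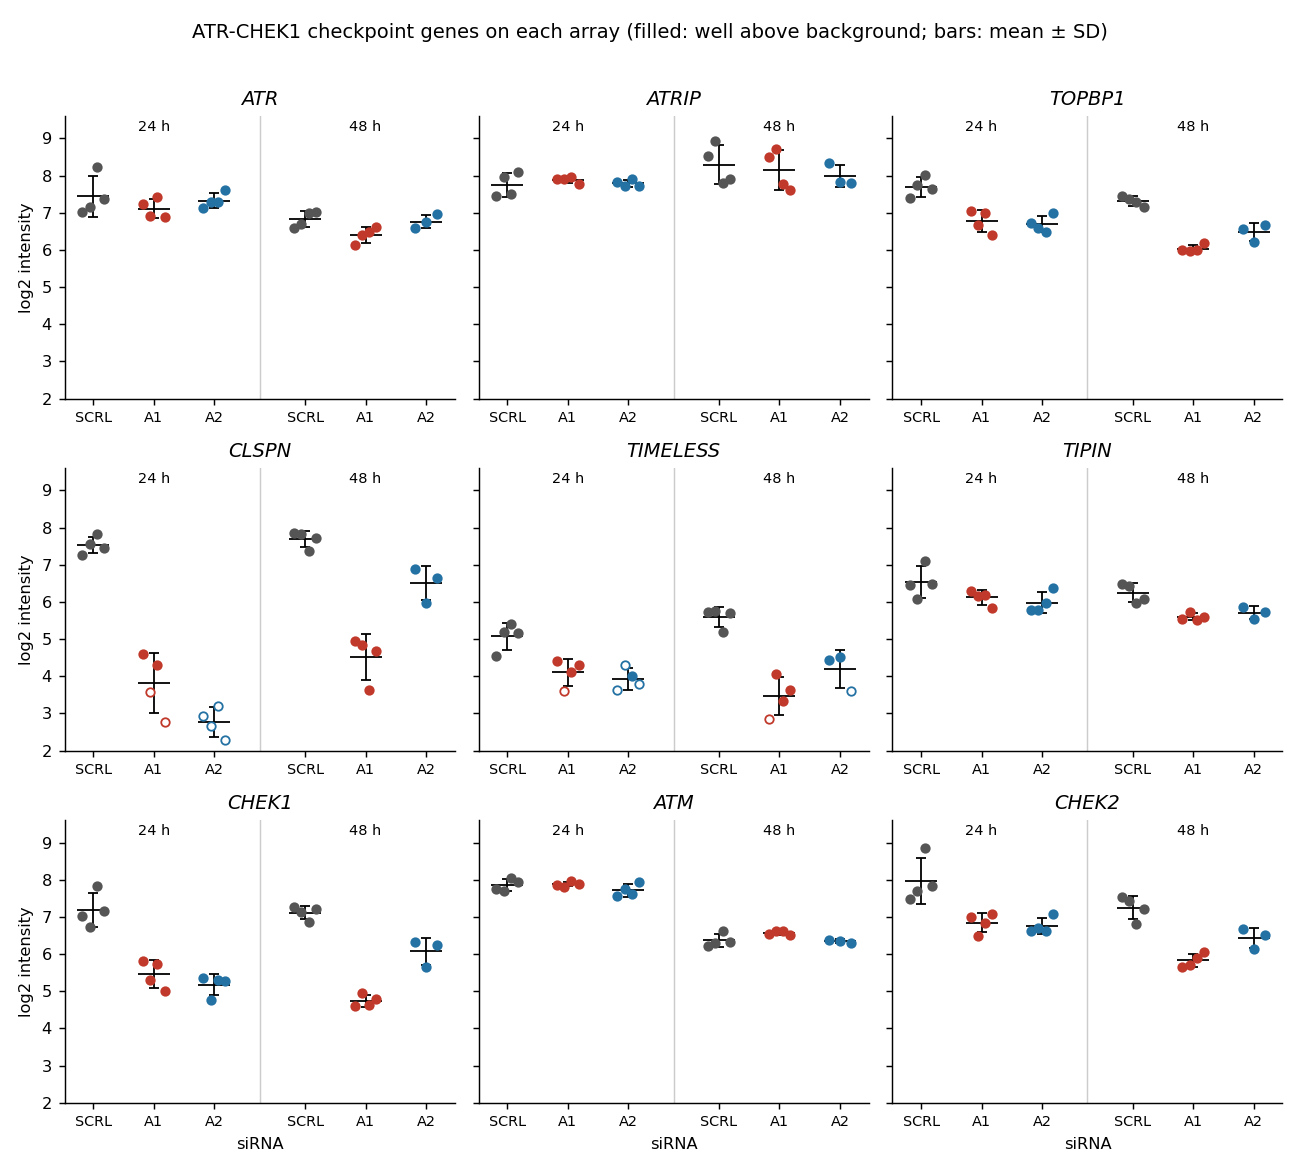
Normalized log2 intensity (y axis) of the tested probe of each of the 9 members on every array, by siRNA (x axis) at 24 h and 48 h. Points are arrays, filled where the signal was well above background, and bars are mean ± SD (n = 4, and 3 for si-A2 at 48 h); CLSPN falls from between 7.28 and 7.82 after si-SCRL to between 2.28 and 3.21 after si-A2 at 24 h, all open, while the ATM and ATRIP readings of the knockdown groups overlap those of the controls.

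TOPBP1, the activator of ATR, was read at 7.39, 7.74, 8.02 and 7.64 after si-SCRL, at 7.05, 6.66, 7.0 and 6.41 after si-A1 and at 6.73, 6.59, 6.49 and 6.99 after si-A2. Neither knockdown group overlapped the controls. Its log2 fold change was -0.92 (95% confidence interval -1.35 to -0.48, limma adjusted p = 0.0406) after si-A1 and -1.0 (-1.43 to -0.56, limma adjusted p = 0.0299) after si-A2, which was called with normexp (-0.72, limma adjusted p = 0.00978). TIMELESS, the larger partner of the fork protection pair, read 4.55 to 5.41 after si-SCRL, 3.61 to 4.41 after si-A1 and 3.63 to 4.30 after si-A2, again without overlap. It was well above background on 3 of the 4 si-A1 arrays and on 1 of the 4 si-A2 arrays, so its log2 fold changes of -0.97 and -1.15 (limma adjusted p = 0.0687 and 0.0351) rest partly on signal near background, and they were -0.29 and -0.32 with normexp. TIPIN, its partner, had log2 fold changes of -0.41 and -0.55 (limma adjusted p = 0.459 and 0.329), and both groups overlapped the controls.

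CHEK2, the effector kinase of ATM, read 7.48, 7.70, 8.85 and 7.84 after si-SCRL, 7.0, 6.49, 6.82 and 7.07 after si-A1, and 6.61, 6.70, 6.63 and 7.07 after si-A2. No knockdown array reached the lowest control. The log2 fold change was -1.12 ± 0.24 (SE, limma adjusted p = 0.0401) after si-A1 and -1.22 ± 0.24 (SE, limma adjusted p = 0.0301) after si-A2. CHEK2 has 6 probes on the 24 h array, whose changes lay between -1.12 and -0.78 after si-A1 and between -1.31 and -0.80 after si-A2. With every probe tested on its own, 1 of the 6 was called in each comparison, beside 1.1% and 0.928% of all probes.

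The kinases and the ATR partner differed less. ATR read 7.01, 7.14, 8.24 and 7.38 after si-SCRL, 6.87 to 7.44 after si-A1 and 7.12 to 7.60 after si-A2. The change was -0.33 (95% confidence interval -0.83 to 0.17) after si-A1 and -0.12 (-0.62 to 0.38) after si-A2. ATRIP had changes of 0.14 (-0.22 to 0.50) and 0.04 (-0.32 to 0.41), and ATM of 0.02 (-0.25 to 0.29) and -0.15 (-0.42 to 0.12). For these 3 genes the arrays of the groups overlapped, and the intervals for ATM exclude a decrease larger than 0.42 on the log2 scale. Each of them has 2 probes; the second ATRIP probe read -0.48 after si-A1 and -0.23 after si-A2, opposite in sign to the tested probe, and neither probe was called.

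Replicate 3 of si-SCRL at 24 h gave the highest control reading for 8 of the 9 members, and it had the lowest median intensity of the 24 h arrays (24.4). Without it, the si-A1 changes of CLSPN and CHEK1 were -3.59 and -1.51 and the si-A2 changes -4.63 and -1.80, and all but CHEK1 after si-A1 (limma adjusted p = 0.0107) stayed past the threshold. In 5 of the 9 members every array of a knockdown group lay below every si-SCRL array, for si-A1 and for si-A2 alike (CHEK1, CHEK2, CLSPN, TIMELESS and TOPBP1). The share of all genes tested that did so was 5.1% for si-A1 and 4.16% for si-A2. The 12 arrays lay on 2 slides, each with 2 replicates of every siRNA. Within slide 1 the changes of CLSPN and CHEK1 were -3.34 and -1.32 after si-A1 and -4.62 and -1.82 after si-A2. Within slide 2 they were -4.10 and -2.12 after si-A1 and -4.89 and -2.19 after si-A2. No gene passed the threshold within 1 slide, where a group has 2 arrays.

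**Figure D2:**
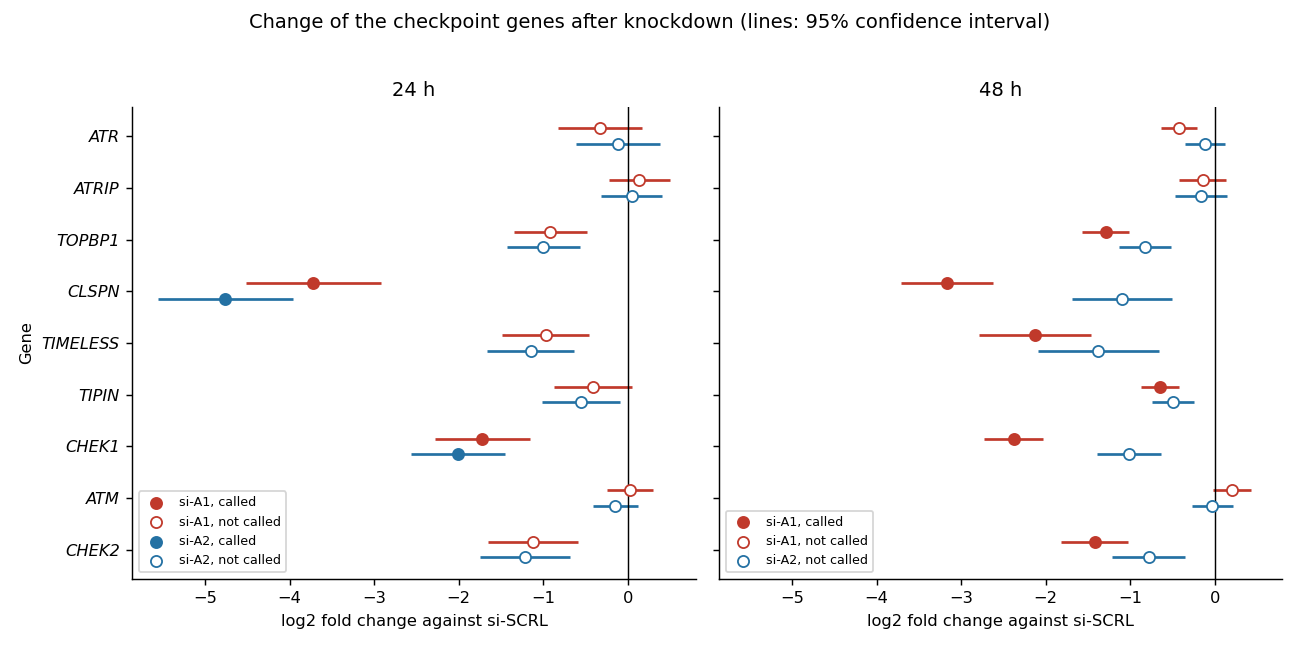
Log2 fold change against si-SCRL (x axis) for the 9 members (y axis) at 24 h and 48 h, with 95% confidence intervals as lines; filled points were called at an adjusted p below 0.01. At 48 h the si-A1 points of 6 members are filled and no si-A2 point is. The CLSPN value after si-A2 at 24 h (-4.76) rests on signal that was well above background on no si-A2 array.

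**Figure D3:**
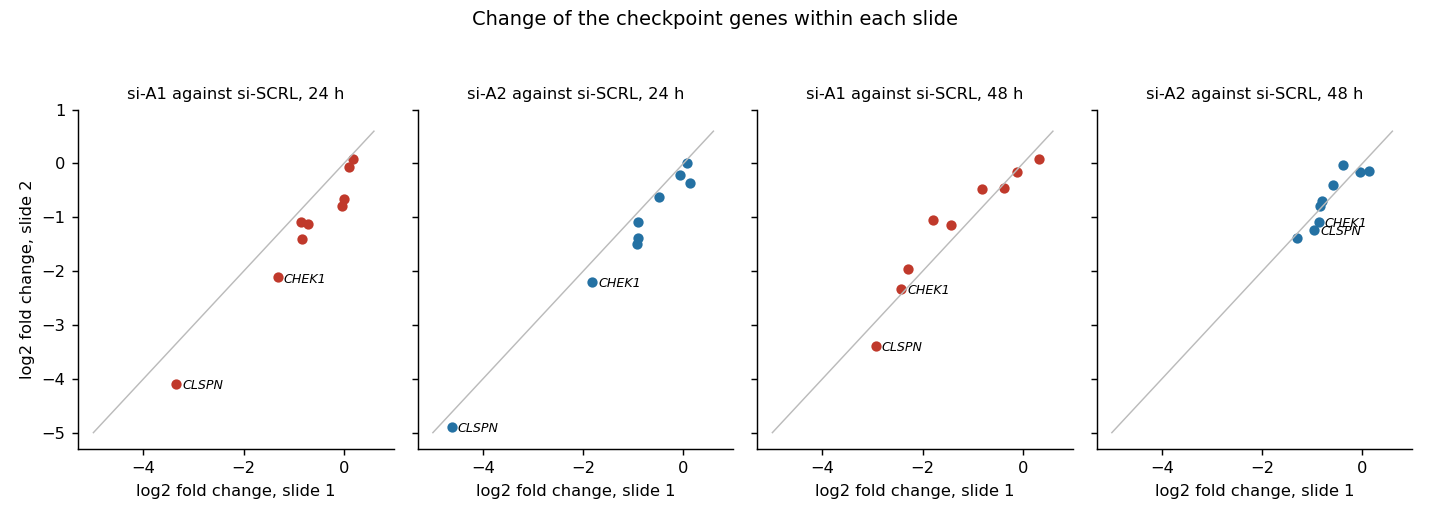
Log2 fold change against si-SCRL computed within slide 1 (x axis) and within slide 2 (y axis) for the 9 members, 1 panel per comparison, with the line of equality in grey. CLSPN and CHEK1 are the labelled points, and CLSPN lies at the lower end of both axes at 24 h on either slide.

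The second question was whether the checkpoint genes differ after the longer knockdown. At 48 h after si-A1, CLSPN, CHEK1, TIMELESS, CHEK2, TOPBP1 and TIPIN were called lower, which is 6 of the 9 members, where 3.66% of all genes tested were. No si-A1 effect of a member was called different from that at 24 h in the interaction test below. The median log2 fold change of the members was -1.29, and that of all genes 0.06; with normexp and with no background correction the member medians were -0.59 and -0.82. After si-A2 no member was called (limma; 6 had an unadjusted p below 0.05, all 6 with a lower mean), where 0.38% of all genes were called lower, and the median was -0.78. The si-A2 comparison has 3 arrays at this time. With normexp background correction CHEK1, CLSPN and TOPBP1 were called after si-A2, and with no background correction TIMELESS as well, with changes of -0.89 to -0.57. Genes called in either direction then numbered 487 of 35989 and 601 of 35985, where the main setting called 167 of 37670. With the dim array kept in, no member was called in any 48 h comparison. Few genes of any kind were called in that fit: 23 of 39269 after si-A1, and 0 of 39269 after si-A2 or between the siRNAs. CHEK1 and CLSPN there differed from si-SCRL by -2.32 and -3.10 for si-A1 and by -1.94 and -2.48 for si-A2. In 6 of 9 members every array lay below every si-SCRL array in either comparison, beside 8.18% of all genes for si-A1 and 6.8% for si-A2.

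CHEK1 read 7.27, 7.12, 6.87 and 7.20 after si-SCRL at 48 h and 4.60, 4.94, 4.63 and 4.78 after si-A1. It was 6.32, 5.66 and 6.23 on the 3 si-A2 arrays, between the other groups and overlapping neither. The log2 fold change was -2.38 ± 0.15 (SE) after si-A1, a 5.20-fold lower level (limma adjusted p = 4.99e-05). It was -1.01 ± 0.17 (SE) after si-A2 (limma adjusted p = 0.0192). CLSPN read 7.85, 7.83, 7.37 and 7.73 after si-SCRL and 4.96, 4.86, 3.62 and 4.69 after si-A1. It read 6.88, 5.99 and 6.65 after si-A2, well above background on every array, unlike at 24 h. The log2 fold change was -3.16 ± 0.24 (SE) after si-A1, an 8.96-fold lower level (limma adjusted p = 9.0e-05). After si-A2 it was -1.10 ± 0.26 (SE, limma adjusted p = 0.0695). The si-A1 changes were smaller but still called with normexp (-1.25 for CHEK1 and -1.65 for CLSPN) and with no background correction (-1.50 and -2.02).

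TIMELESS fell after si-A1 at 48 h. It read 5.72, 5.75, 5.19 and 5.72 after si-SCRL, 2.84, 4.05, 3.34 and 3.64 after si-A1, where 3 of the 4 arrays were well above background, and 4.43, 4.53 and 3.60 after si-A2, where 2 of the 3 were. Its log2 fold change was -2.13 ± 0.29 (SE, limma adjusted p = 0.00192) after si-A1 and -1.38 ± 0.32 (SE, limma adjusted p = 0.06) after si-A2. The si-A1 change was -0.59 with normexp and -0.82 with no background correction, both called. Its partner TIPIN read 5.98 to 6.49 after si-SCRL, 5.51 to 5.74 after si-A1 and 5.55 to 5.88 after si-A2. TIPIN had the smallest change among the called members, -0.64 ± 0.10 (SE, limma adjusted p = 0.00382) after si-A1. That call was lost, with limma adjusted p-values of 0.0117 to 0.0152, when si-SCRL replicate 1, 2 or 4 or si-A1 replicate 1, 2 or 3 was left out, and with the replicate number as a block (limma adjusted p = 0.0112). It was also lost with normexp (-0.30) and with no background correction (-0.35), where the change was under 0.5 in size. The mean for si-A2 differed by -0.49 (limma adjusted p = 0.056).

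TOPBP1 read 7.15 to 7.44 after si-SCRL, 5.96 to 6.17 after si-A1 and 6.20 to 6.68 after si-A2, and fell by 1.29 on the log2 scale after si-A1 (limma adjusted p = 0.000266). Its change after si-A2 was -0.82 (limma adjusted p = 0.0185). CHEK2 read 6.82 to 7.53 after si-SCRL, 5.66 to 6.05 after si-A1 and 6.15 to 6.67 after si-A2. Its change was -1.42 ± 0.18 (SE, limma adjusted p = 0.00113) after si-A1 and -0.78 ± 0.19 (SE, limma adjusted p = 0.0753) after si-A2. The brightest CHEK2 probe at 48 h is not the one used at 24 h. All 4 CHEK2 probes of the 48 h array were called lower after si-A1, with changes between -1.98 and -1.41, beside 6.13% of all probes called in either direction, and none was called after si-A2.

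ATR, ATRIP and ATM did not pass the threshold at 48 h either. ATR read 6.58 to 7.01 after si-SCRL and 6.12 to 6.61 after si-A1, which overlap, and its change of -0.42 (95% confidence interval -0.64 to -0.21) had a limma adjusted p of 0.0179. After si-A2 it was -0.11 (-0.35 to 0.12). ATM, the kinase of the double-strand break branch, was at 0.21 (-0.02 to 0.43) after si-A1 and -0.03 (-0.27 to 0.22) after si-A2. ATRIP was at -0.14 (-0.42 to 0.13) and -0.16 (-0.46 to 0.14), and its readings split by slide: the replicates of slide 1 read 8.34 to 8.92 and those of slide 2 read 7.62 to 7.91, whatever the siRNA. The second ATRIP probe was at -0.62 after si-A1 and 0.06 after si-A2 and was not called (limma adjusted p = 0.153 and 0.947).

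**Figure D4:**
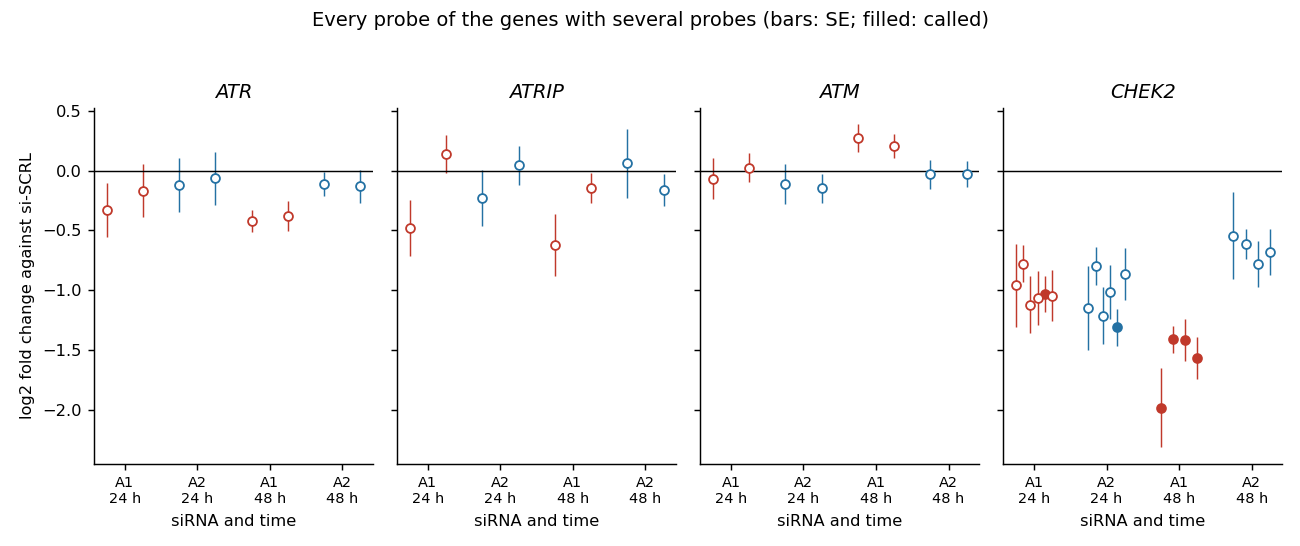
Log2 fold change against si-SCRL (y axis) of every probe of the 4 members with more than 1 probe, by siRNA and time point (x axis), with SE bars; filled points were called when each probe was tested on its own. The 6 CHEK2 probes at 24 h and the 4 at 48 h all lie below 0, while the probes of ATR, ATRIP and ATM lie between -0.62 and 0.27.

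The 2 siRNAs were then compared with each other. At 24 h no member differed between them (limma; 1 member, CLSPN, had an unadjusted p below 0.05; 0.308% of all genes were called in either direction). The difference of si-A2 from si-A1 was -1.04 for CLSPN (95% confidence interval -1.84 to -0.24, limma adjusted p = 0.282), with no si-A2 array well above background, and -0.29 for CHEK1 (-0.85 to 0.27). At 48 h CHEK1 and CLSPN read higher with si-A2 than with si-A1, 2 of 9 members, where 0.926% of all genes were called higher. CHEK1 was 2.58-fold higher (log2 difference 1.37 ± 0.17, SE, limma adjusted p = 0.00372) and CLSPN 4.19-fold higher (2.07 ± 0.26, SE, limma adjusted p = 0.0042). With normexp the differences were 0.59 and 0.88, and with no background correction 0.75 and 1.14, all called. CHEK2, TIMELESS, TOPBP1 and ATR differed by 0.64, 0.75, 0.46 and 0.31 in the same direction, without passing the threshold (limma adjusted p of 0.0967 to 0.253). Both calls were lost without si-A1 replicate 1 or 2, or si-A2 replicate 1 or 4, and that of CHEK1 also without si-A1 replicate 3 or 4 (limma adjusted p-values of 0.0115 to 0.0358 for either gene). The differences themselves then lay between 1.25 and 1.42 for CHEK1 and between 1.90 and 2.13 for CLSPN.

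Whether a knockdown effect changed between 24 h and 48 h was asked with an interaction term, fitted over 30230 genes present on both array versions. CLSPN was the 1 member whose si-A2 effect changed, by 4.00 ± 0.52 (SE) on the log2 scale, toward a smaller decrease at 48 h (limma adjusted p = 0.00209), where 0.043% of all genes were called in this direction. Its size rests on si-A2 signal that was not well above background at 24 h, and it was 1.00 under normexp background correction (limma adjusted p = 0.0054) and 1.19 without background correction (limma adjusted p = 0.00212). The call was lost without si-A2 replicate 1 or 4 at 48 h (3.95 and 3.83, limma adjusted p = 0.0227 and 0.0118). For CHEK1 the si-A2 effect moved by 1.00 (95% confidence interval 0.32 to 1.69, limma adjusted p = 0.442). No si-A1 effect of a member changed (limma; 1 of 9, TIMELESS, had an unadjusted p below 0.05; 0.179% of all genes were called in either direction). TIMELESS moved by -0.87 (-1.67 to -0.08) and CHEK1 by -0.65 (-1.30 to 0.01).

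Other genes of the pathway were described by 6 lists with 47 genes in all, of which 46 were tested at each time point. At 24 h the test called 5 of the 46 lower with si-A1 and 5 with si-A2, beside 0.958% and 0.827% of all genes tested. At 48 h, where 3.66% and 0.38% of all genes tested were called lower, it called 17 of the 46 lower with si-A1 and none with si-A2 (limma; 21 had an unadjusted p below 0.05, all with a lower mean). None was called higher than after si-SCRL in any of the 4 comparisons. The median log2 fold changes were -0.36, -0.24, -0.62 and -0.31 for si-A1 then si-A2, first at 24 h and then at 48 h, where those of all genes were 0.05, 0.05, 0.06 and 0.01. With normexp, 7, 8, 12 and 5 of the 46 were called lower in the same order, with medians of -0.18, -0.15, -0.21 and -0.16, and with no background correction 7, 8, 16 and 6. Over all genes and in either direction, normexp called 528 and 422 of 35311 at 24 h and 1642 and 487 of 35989 at 48 h. Without background correction 531 and 421 of 35067 were called at 24 h and 2178 and 601 of 35985 at 48 h.

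In the fork protection list, 3 of 6 genes were called lower after si-A1 at 24 h, after si-A2 at 24 h and after si-A1 at 48 h, and they were the same genes: WDHD1, MMS22L and DONSON. Of all genes, 0.958%, 0.827% and 3.66% were called lower in these comparisons. WDHD1, which links the replicative helicase to the polymerase that primes DNA, read 6.77 to 7.16 after si-SCRL at 24 h, 4.79 to 5.43 after si-A1 and 4.96 to 5.35 after si-A2, and its log2 fold changes were -1.79 and -1.75 (limma adjusted p = 0.000322 and 0.000345). MMS22L, which works with TONSL at damaged forks, changed by -1.32 and -1.13 (limma adjusted p = 0.00318 and 0.00911), and was well above background on 2 of the 4 si-A1 arrays at 24 h. TONSL itself was at 0.29 and 0.07 and was not called. DONSON, needed to assemble the replicative helicase, changed by -1.05 and -1.15 at 24 h (limma adjusted p = 0.00184 and 0.00104), on signal well above background on 2 of the 4 si-A1 and 1 of the 4 si-A2 arrays. At 48 h after si-A1 it was well above background on no array and was at least 2.58-fold lower than after si-SCRL. This bound was not tested, and the limma adjusted p of 0.000112 is that of the estimated change. The bound holds on the background-subtracted scale, since the change was -0.41 with normexp and -0.58 without background correction. The 24 h calls of MMS22L and DONSON were lost with normexp (MMS22L at -0.44 and -0.38, DONSON at -0.24 and -0.27) and with no background correction, and their 48 h calls with normexp, while WDHD1 was called under both settings in the 3 comparisons. The fork remodellers SMARCAL1 and ZRANB3 were between -0.39 and 0.40 in the 4 comparisons with si-SCRL and were not called.

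The sensor and clamp list holds RPA, the clamp of RAD9A, RAD1 and HUS1, its loader RAD17 and the ATR activator ETAA1. None of its 13 genes was called at 24 h after either siRNA (limma; 6 had an unadjusted p below 0.05 after si-A1 and 5 after si-A2, all with lower means). With normexp or no background correction, RPA2 was called after both siRNAs there (-0.62 and -0.53 under either setting) and RAD17 after si-A1. At 48 h after si-A1, 6 of 12 were lower, beside 3.66% of all genes. They were the RPA subunits RPA1, RPA2 and RPA3 (-1.06, -1.16 and -1.39), the clamp subunits RAD9A and RAD1 (-0.98 and -0.59) and the clamp partner RHNO1 (-1.16). RPA3 read 8.96 to 9.65 after si-SCRL, 7.84 to 8.12 after si-A1 and 8.44 to 8.75 after si-A2. ETAA1 was between -0.24 and -0.05 in the 4 comparisons with si-SCRL and was not called.

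The list of genes that control the cyclin-dependent kinases holds the CDC25 phosphatases, which activate these kinases, and WEE1 and PKMYT1, which inhibit them, beside TLK1 and TLK2. In it CDC25C, the phosphatase that opens mitosis and a target of CHEK1, fell in 3 comparisons. It read 5.56 to 5.99 after si-SCRL at 24 h, 4.77 to 5.25 after si-A1 and 4.32 to 4.58 after si-A2. The log2 fold changes were -0.90 and -1.35 (limma adjusted p = 0.00702 and 0.000488), and -2.43 after si-A1 at 48 h (limma adjusted p = 0.0024), where it was well above background on 2 of 4 arrays. The si-A1 call at 24 h was lost with normexp and with no background correction (-0.35 under both), and the other 2 were kept. CDC25B and PKMYT1 were called after si-A1 at 48 h (-1.67 and -0.90). WEE1 was not among the 6 genes of this list tested at 24 h, and at 48 h it was tested but not called against si-SCRL. The si-A1 effect on CDC25B was larger at 48 h than at 24 h by -1.29 (limma adjusted p = 0.00725). CDC25A, the phosphatase that CHEK1 marks for degradation, was between -0.86 and -0.40 in the 4 comparisons with si-SCRL and was not called, but with normexp or no background correction it was called after si-A2 at 24 h.

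In the ATM branch, 1 of 10 genes was called lower at 24 h after each siRNA, beside 0.958% of all genes for si-A1 and 0.827% for si-A2. After si-A1 it was H2AX, the histone phosphorylated next to a break (-1.88, limma adjusted p = 0.00059). After si-A2 it was MDC1, the reader of that mark (-1.35, limma adjusted p = 0.00349). H2AX was at -1.07 after si-A2 and MDC1 at -1.06 after si-A1 (limma adjusted p = 0.0229 and 0.0156), and the difference between the siRNAs was not called for either gene. With normexp, both genes were called after both siRNAs at 24 h. At 48 h after si-A1, H2AX, MDC1, RNF168 and ATMIN were called lower (-2.73, -1.57, -1.06 and -0.62), beside 3.66% of all genes. The break sensors NBN and RAD50 lay between -0.36 and 0.02 in the 4 comparisons and were not called. Among the 4 relatives of ATR and ATM in the same kinase family, MTOR was called lower after si-A1 at 48 h (-0.84, limma adjusted p = 0.00252), while PRKDC, SMG1 and TRRAP were not. None of the 7 regulators of CHEK1 and Claspin stability was called in the comparisons with si-SCRL (limma; 0 and 1 of the 7 had an unadjusted p below 0.05 at 24 h for si-A1 and si-A2, and 3 and 1 at 48 h), with medians of -0.05, -0.06, 0.05 and -0.11.

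**Figure D5:**
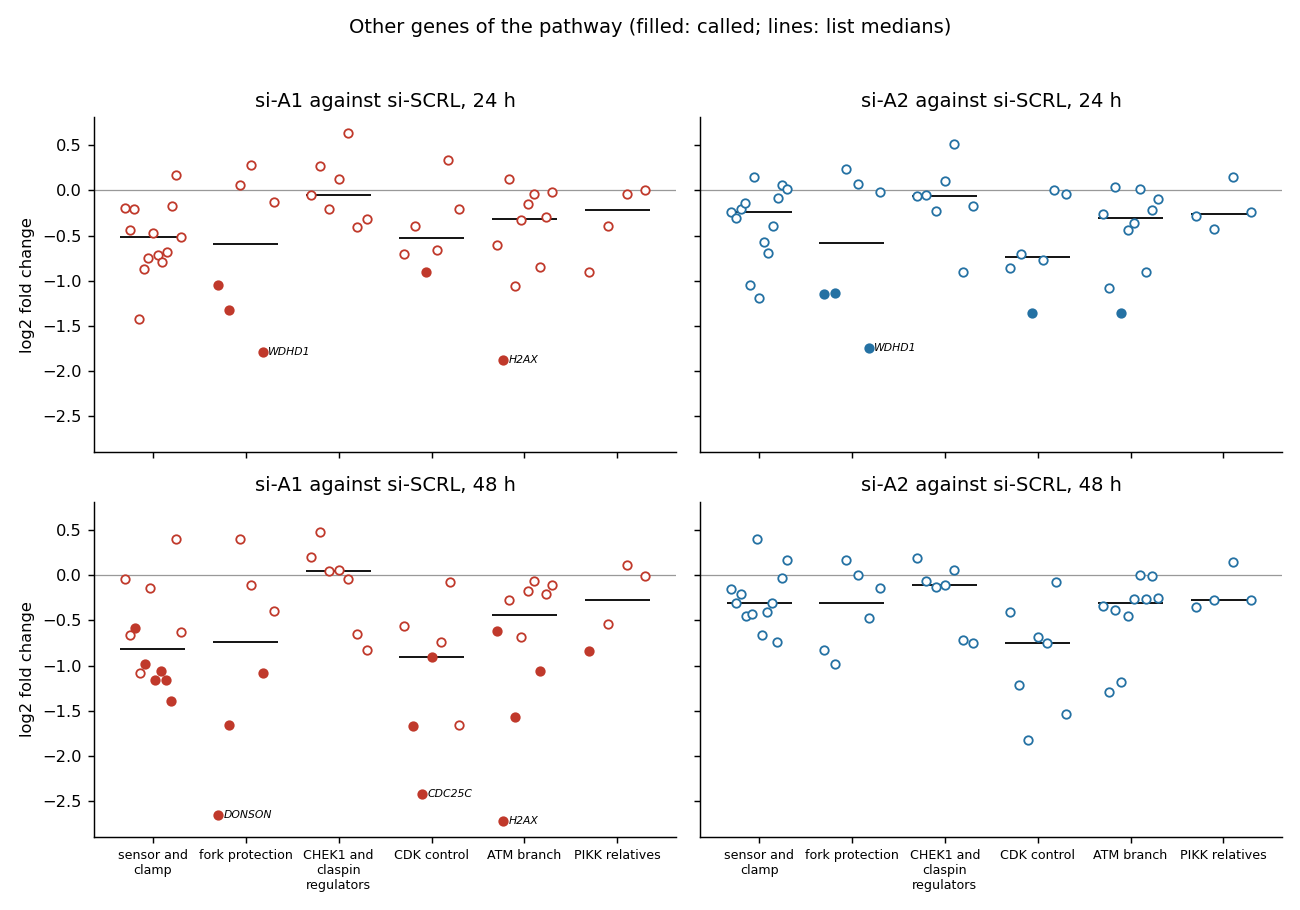
Log2 fold change against si-SCRL (y axis) of the other pathway genes, by list (x axis), 1 panel per siRNA and time; filled points were called and black lines are list medians. After si-A1 at 48 h 17 points are filled, DONSON (-2.66) and H2AX (-2.73) being the lowest, and after si-A2 at 48 h none is. The DONSON value there rests on signal that was well above background on no si-A1 array.

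Markers of S phase moved in the same comparisons. Without the members and pathway genes, 39 of 40 such markers were tested, and 24 were called lower after si-A1 at 24 h, 26 after si-A2 at 24 h, 32 after si-A1 at 48 h and 2 after si-A2 at 48 h. The shares of all genes called lower were 0.958%, 0.827%, 3.66% and 0.38% in the same order. The markers had median log2 fold changes of -1.55, -1.47, -1.56 and -0.71. Their summed linear intensity per array was 19665 to 29313 after si-SCRL, 12768 to 22596 after si-A1 and 11753 to 17905 after si-A2 at 24 h. At 48 h it was 12730 to 15536, 4514 to 5243 and 6597 to 9199. The part of these markers in the changes of the members was not tested, and in bulk RNA fewer cells in S phase and less RNA per cell cannot be told apart.

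The genes whose levels ran most alike to 3 members over the 12 arrays at 24 h were listed as a description, since the arrays share the siRNA groups. For CLSPN they were CENPE, CEP78, POLE2, CENPF and FAM72A (Pearson r of 0.984 to 0.994), and over the 11 arrays at 48 h the same pairs had r of 0.799 to 0.935. For CHEK1 they were DLGAP5, MDC1, CEP78, CDKN2C and PRIM1 (0.973 to 0.980), with 0.876 to 0.987 at 48 h. CENPE, CENPF and DLGAP5 are genes of the mitotic spindle and kinetochore, and POLE2 and PRIM1 encode subunits of replicative polymerases. For TIMELESS they were HJURP, GINS4, SPC25, LRGUK and DENND11 (0.921 to 0.938). At 48 h HJURP, GINS4 and SPC25 kept r of 0.875 to 0.929, but LRGUK and DENND11 were at -0.30 and -0.24.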

How the data were processed

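LNCaP cells transfected with si-SCRL, si-A1 or si-A2 were profiled at 24 h and 48 h on one-colour arrays, 4 per group. Per the file headers, the authors read each scan with Agilent Feature Extraction 11.5.1.1, and the deposited processed signal is a linear intensity, background-subtracted within its array and not normalized across arrays; median spot and local background intensities were deposited too. The authors also deposited log2 values per array, used as an alternative. The submitters' notes name R 3.4.3 and limma 3.34.8. Samples were grouped by their labels.

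For this report, log2 processed intensities were quantile-normalized within each time point (12 arrays at 24 h, 11 at 48 h), flagged spots were set aside and repeated spots averaged. Probes were named through RefSeq (GRCh38.p14, 57.4% of probes at 24 h and 53.4% at 48 h) and kept above the mean plus 3 SDs of 308 negative control spots on at least 3 arrays, without the interquartile filter of the study, which is an alternative here. The brightest probe stood for its gene. Models were fitted with limma 3.58.1 (lmFit, eBayes; R 4.3.3, statmod 1.5.0, and version 1.17.8 of the data.table package), 3 siRNA groups in 1 fit with slide as an additive term, and tested on simulated data. For the interaction, 23 arrays were normalized together. Well above background means that Feature Extraction rated at least 50% of a probe's spots so. The number of arrays limits the precision.

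The members and lists were chosen with earlier results of these data known. Part of the prostate marker list is not reported here. The genes named are the 9 members, pathway genes called at 24 h or singled out after their values were seen, and the 5 genes most like CLSPN, CHEK1 and TIMELESS. The alternatives covered background (normexp with an offset of 50, or none), scaling (75th percentile, or the log2 values of the authors), the slide (no term, a random block, 1 slide at a time), a replicate block, a fit of 2 groups, other probe filters and rules, a minimum log2 fold change of 1, the dim array, and leaving out each array. Same-numbered arrays deviated together at 48 h (10 of 10 pairs with r of 0.19 to 0.37) but not at 24 h (3 of 12 pairs above 0.1). Unequal replicate numbers on 1 slide also did so at 48 h (0.10 to 0.31). The pairing comes from this check alone.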

Additional observations from a re-analysis of the deposited data

Results flagged for a closer look

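Among 45 groups of 4 arrays (9 members in 5 groups), 3 held an array far from the other 3 by Dixon's test, and chance gives about 1 in 20. CHEK1 after si-A2 at 24 h read 4.76 in replicate 2, below the other 3 arrays. TIMELESS after si-SCRL at 48 h read 5.19 in replicate 3, below the rest, and TOPBP1 after si-A1 at 48 h read 6.17 in replicate 4, above the rest. The si-A2 effect on CLSPN differed between the time points by 4.00 on the log2 scale in the interaction test.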

How the results depend on the processing

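Among the alternatives, 0 of 367 values of members called in the comparison at hand changed sign, and 53 of 1703 values of members not called did. These are not counts of separate checks. Some alternatives, such as the minimum log2 fold change of 1, alter the call and not the estimate. Each refit without 1 array keeps all the others. The median of the members for the change of the si-A2 effect turned from 0.14 to -0.24 with si-A2 replicate 2 included. Within slide 1 alone or slide 2 alone, 0 members were called after si-A1 or si-A2 at 24 h, after si-A1 at 48 h, or between the siRNAs at 48 h, where a group has 2 arrays at most. No gene of any kind was called in those fits. With only the 2 groups compared in the fit, 1 member was called after si-A1 at 24 h, beside 136 of 36639 genes. Between the siRNAs at 48 h that fit called 0 members and 0 of 37670 genes. Without the slide term 1 member was called between the siRNAs at 48 h, beside 240 of 37670 genes. At 48 h after si-A2, 3 members were called with normexp and 4 with no background correction, beside 487 of 35989 and 601 of 35985 genes. Including si-A2 replicate 2 at 48 h left 0 members called after si-A1, 0 between the siRNAs and 0 for the change of the si-A2 effect. Of all genes, 23 of 39269, 0 of 39269 and 0 of 31254 were called there. The medians of the members were then -1.64 after si-A2 and 0.20 between the siRNAs at 48 h. With normexp the median of the members was, for si-A1 and then si-A2, -0.29 and -0.40 at 24 h, -0.59 and -0.45 at 48 h, and 0.21 between the siRNAs at 48 h. With no background correction it was -0.29, -0.39, -0.82 (si-A1, 48 h) and 0.22 (between the siRNAs, 48 h). These 2 settings also shrank the CLSPN change, to -1.64 and -1.65 after si-A1 at 24 h. The cause was not tested. On slide 2 alone the median after si-A1 at 48 h was -1.05. The interquartile filter, which drops members that vary little, gave -1.77 there and 0.69 between the siRNAs.

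With 1 array left out, 1 to 2 members were called for si-A1 and 2 for si-A2 at 24 h, 5 to 6 for si-A1 and 0 for si-A2 at 48 h, 0 to 2 between the siRNAs at 48 h and 0 to 1 for the change of the si-A2 effect. Genes called in either direction numbered, in the same order, 198 to 321, 211 to 326, 1094 to 2291, 1 to 72, 20 to 443 and 3 to 27. No member was called in the other comparisons, between the siRNAs at 24 h (27 to 253 genes) and for the change of the si-A1 effect (8 to 77 genes). The arrays that decide the calls of CHEK1, TIPIN and CLSPN are named beside those results. With the replicate number as a block, 2 and 2 members were called at 24 h, 5 after si-A1, 0 after si-A2 and 2 between the siRNAs at 48 h. Of all genes, 251 and 239 of 36639 were called at 24 h, and 1424, 0 and 208 of 37670 at 48 h. The call of TIPIN (limma adjusted p = 0.0112) was the only one of a member that the block changed. At 24 h same-numbered arrays share a number and a slide, and the labels do not say what else they share. Signal over background limits CLSPN, TIMELESS, DONSON, MMS22L and CDC25C, which fell to or near background after knockdown.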
